A study of Mus musculus with 6 samples.

Results

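The 10 genes followed here belong to the sarcomere's Z-disc and to the muscle's response to stretch, and they were read across all 6 libraries of a mouse study. They are Ttn, Neb, Myot, Ldb3, Cmya5, Xirp1, Xirp2, Ankrd1, Ankrd2 and Csrp3. They were taken by symbol, and all 10 were found among the 57010 genes of the deposited count matrix. The study compared gastrocnemius, a calf muscle made mostly of fast fibres, from untreated mice aged 3 months. The mutants were 3 homozygous animals of B6.A-Dysfprmd/GeneJ, called BLAJ, a C57BL/6 line whose Dysf gene carries the prmd allele. The controls were 3 wild-type animals labelled C57BL/6. The controls were all male, whereas the mutants were 2 females (replicates 1 and 2) and 1 male (replicate 3). A fit with sex as a covariate therefore compares mutant replicate 3 alone with the controls. Every animal gave 1 poly(A)-selected library, and each animal is an independent replicate per the labels.

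The libraries matched their labels for muscle and for Dysf, and the strain of the controls was in doubt. Library totals ran from 35042245 to 43733641 read pairs, so 3 counts equal 0.0686 to 0.0856 CPM, the unit used below, which is the count divided by the scaled library total. The muscle genes Acta1, Ckm, Myh4, Mylpf and Pvalb summed to between 98667 and 149693 CPM in every library. Dysf, which codes for the membrane repair protein dysferlin, measured 72.3, 99.8 and 145 CPM in controls 1, 2 and 3, against 15.8, 14.7 and 20.3 CPM in mutants 1, 2 and 3. The log2 fold change of Dysf was -2.64 (standard error, SE, 0.28; edgeR adjusted p = 0.0249), a call that was lost with sex as a covariate (log2 -2.38, edgeR adjusted p = 0.546) and on leaving out any 1 mutant (log2 -2.80 to -2.55, adjusted p = 0.0637 to 0.228), with the fold little changed. Ifi202b and H2-Ea-ps, which C57BL/6 mice do not express, were present in the controls at 1.02 to 7.69 CPM and 2.37 to 3.44 CPM. The mutants held 0 and 1 counts of them over the group, so strain and loss of dysferlin cannot be told apart in any difference between the groups. Control replicate 2 stood apart in genes of denervated or regenerating fibres, as given with Ankrd1.

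The Z-disc is the plate that borders each sarcomere and ties together the thin filaments of neighbouring units. Titin, the product of Ttn, spans from the Z-disc to the middle of the sarcomere and acts as its spring, and nebulin, the product of Neb, lies along the thin filament and sets its length. Myotilin and the LIM-domain protein of Ldb3 (also called ZASP or Cypher) bind alpha-actinin at the Z-disc, and Cmya5 codes for myospryn, a large scaffold that binds desmin. The Xin proteins of Xirp1 and Xirp2 bind actin at sites of attachment and remodelling. The ankyrin repeat proteins of Ankrd1 (CARP) and Ankrd2 (ARPP) bind titin and can move to the nucleus, and their transcripts are known to rise with stretch or denervation. Csrp3 codes for muscle LIM protein, a partner of the titin cap at the Z-disc, and both Ankrd2 and Csrp3 are typical of slow fibres.

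The genes differed widely in level. On the scale of CPM per kilobase of exon (all exons joined in GENCODE M21), Myot was highest in the controls at 584 ± 92.5 (SD, n = 3), followed by Ldb3 at 349 ± 82.2, Xirp2 at 306 ± 22.7, Neb at 263 ± 77.3 and Cmya5 at 244 ± 23.0. Ankrd2 stood at 103 ± 70.6, Ttn at 75.4 ± 8.60, Xirp1 at 37.8 ± 7.10, Csrp3 at 35 ± 25 and Ankrd1 at 10.2 ± 14.4 CPM per kilobase (SD, n = 3). Within this order the SD ranges of neighbours separated at 3 places, below Myot, below Cmya5 and below Ttn, and overlapped elsewhere. The length used for Ttn, 116825 bases, joins exons of every isoform, including any that this muscle skips, so its level per length is a low estimate. The deposited counts, made without regard to strand, held 75.5% to 83.6% of the pairs counted on the strand of Cmya5. For Ankrd1 they held 45.9% to 49.2%. The levels of both genes are thus low estimates too, and the order of Cmya5 and Neb is not settled. Because pairs that map to several places were not counted, repeats within a gene can lower its count: windows of 61 bases that recur within the longest transcript made up 3.50% of Neb, 0.746% of Cmya5 and 0.68% of Ttn, and 0 of the other 7 genes. The genes lie on chromosomes 2 (Ttn, Neb and Xirp2), 7 (Csrp3), 9 (Xirp1), 13 (Cmya5), 14 (Ldb3), 18 (Myot) and 19 (Ankrd1 and Ankrd2).

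They also differed in how much they varied between animals. The ratio of the highest to the lowest of the 6 libraries, in CPM, was 1.34 for Xirp2, 1.59 for Myot, 1.61 for Ldb3, 1.69 for Ttn, 1.97 for Cmya5, 2.14 for Neb and 2.42 for Xirp1. It reached 7.27 for Ankrd2, 8.24 for Csrp3 and 14.7 for Ankrd1, where control replicate 2 alone was high (77.3 CPM, against 5.26 to 8.68 CPM in the other 5). The median of that ratio over the 12722 tested genes with a mean of at least 1 CPM was 1.59. Xirp2 and Myot lay at or below that median, and the other 8 genes lay above it.

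**Figure D1:**
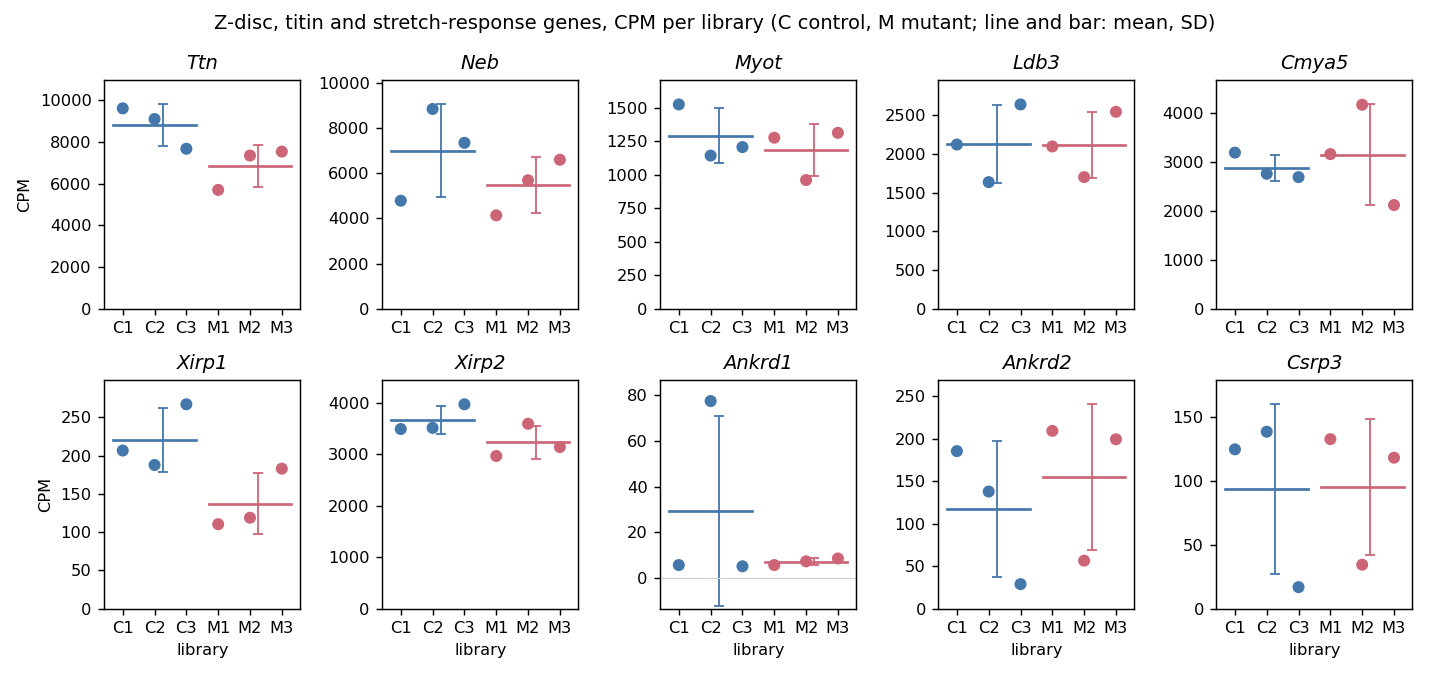
Each panel plots 1 gene in CPM (vertical axis) over the 6 libraries (horizontal axis; C1 to C3 controls in blue, M1 to M3 mutants in red), with the group mean as a line and the SD over 3 animals as a bar. Xirp1 and Ttn have every mutant below every control, as do 6.09% of all tested genes. For Ttn this does not hold in CPM without the TMM scaling of the libraries. Ankrd1 is high in C2 alone at 77.3 CPM, and Ankrd2 and Csrp3 are low together in C3 and M2.

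The first comparison asked which of these genes differ between dysferlin-deficient and control muscle. All 10 passed the filter on low counts, and 0 of 10 were called at an adjusted p below 0.05 (edgeR quasi-likelihood test, adjusted over all 15589 genes tested), where the whole table had 0.199% called (0.0128% higher and 0.186% lower). At an unadjusted p below 0.05, 1 of the 10 was lower, Xirp1, against 6.94% of all tested genes in either direction (3.69% lower and 3.25% higher). The fitted log2 fold change was below 0 in 7 of the 10, against 50.2% of all genes, and its median was -0.15, against -0.0015 over all genes. The adjusted p-values of the 10 ran from 0.655 for Xirp1 to 0.997 for Csrp3, and over the 17 other settings tried no member was called, the smallest adjusted p being 0.280 for Xirp1 with DESeq2, which gave Ankrd1 no adjusted p. In the authors' deposited table the Xirp1 log2 fold change was -0.69 with an adjusted p of 0.305, and Ankrd1 had none.

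**Figure D2:**
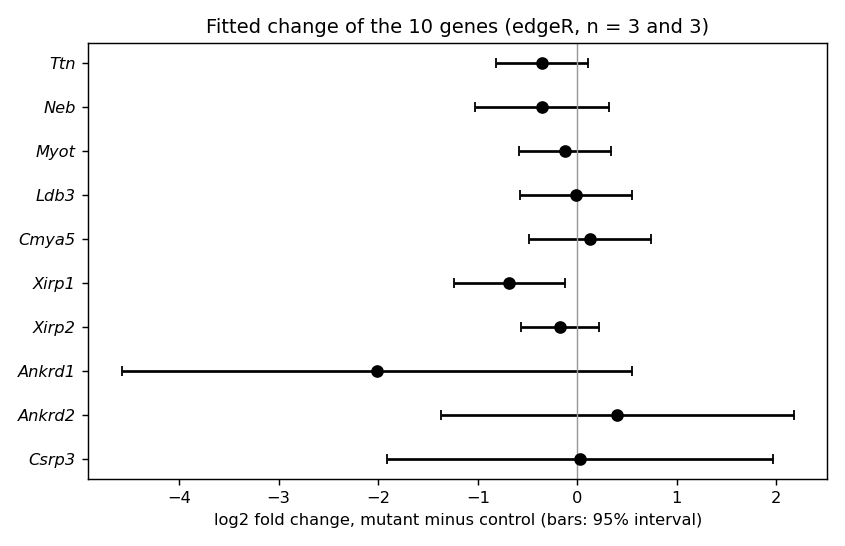
The points give the fitted log2 fold change of each gene (mutant minus control, horizontal axis) and the bars its 95% interval from the edgeR fit, with 3 animals per group. The interval of Xirp1 (-1.24 to -0.13) lies below 0 before adjustment over all genes, and those of Ankrd1, Ankrd2 and Csrp3 are several times wider than those of the structural genes.

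Among the giant filament proteins, Ttn measured 9621, 9109 and 7682 CPM in controls 1, 2 and 3, against 5707, 7356 and 7545 CPM in mutants 1, 2 and 3. Every mutant lay below every control, by a margin of 7545 against 7682 CPM between the nearest animals. Ttn and Xirp1 were the 2 of 10 genes whose groups did not overlap with mutants lower, where 6.09% of all tested genes did so, and none of the 10 had mutants higher (5.97% of all genes). For Ttn this separation rested on the TMM scaling of the libraries. In CPM without that scaling, a check added after seeing the data, mutant replicate 2 stood at 7616 CPM, above control replicate 3 at 7371 CPM, and of the 10 genes Xirp1 alone had its groups apart (4.66% of all genes had mutants lower and 7.15% mutants higher). The Ttn log2 fold change was -0.36 (SE 0.20, 95% interval -0.82 to 0.10, edgeR adjusted p = 0.804). With sex in the model it was -0.22.

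Neb measured 4786, 8848 and 7350 CPM in the controls, against 4136, 5691 and 6600 CPM in the mutants. Control replicate 1 and mutant replicate 1 were the low animals of their groups, and the groups overlapped. The log2 fold change was -0.35 (SE 0.29, 95% interval -1.02 to 0.32, edgeR adjusted p = 0.873). It was -0.15 without control replicate 2, -0.18 without mutant replicate 1, -0.57 without control replicate 1 and -0.084 with sex as a covariate. The ratio of Neb to Ttn within a library, which no scaling of libraries can alter, was 0.497, 0.971 and 0.957 in the controls and 0.725, 0.774 and 0.875 in the mutants. The groups overlapped in it (mean log2 difference 0.028, two-sided exact permutation p = 1, smallest possible 0.1). In control replicate 1 there was thus less Neb beside Ttn than in any other library, and that library also had the highest share of multimapping pairs (9.78%) and of mitochondrial counts (9.75%). Whether these shares play a part was not tested.

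The groups overlapped in all 3 of the Z-disc scaffold genes. Myot, which codes for the actin-crosslinking protein myotilin, measured 1524, 1142 and 1206 CPM in the controls, against 1276, 960 and 1312 CPM in the mutants. Ldb3 measured 2120, 1634 and 2637 CPM in the controls, against 2095, 1699 and 2543 CPM in the mutants, so the range of the mutants lay inside that of the controls. The log2 fold changes were -0.13 for Myot (SE 0.20, 95% interval -0.59 to 0.34) and -0.012 for Ldb3 (SE 0.24, 95% interval -0.58 to 0.55), with edgeR adjusted p = 0.949 and 0.996. With 3 animals a group the data allow changes of either transcript up to the ends of these intervals. With sex as a covariate both values turned positive, at 0.024 and 0.26. The sign also turned for Myot without control replicate 1 (0.0039) or mutant replicate 2 (0.0030), and for Ldb3 without control replicate 3 (0.16) or mutant replicate 2 (0.12).

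Cmya5, the myospryn gene, measured 3197, 2764 and 2696 CPM in the controls, against 3167, 4179 and 2123 CPM in the mutants. The mutants spread to both sides of the controls, with mutant replicate 2 the highest and mutant replicate 3, the male, the lowest of all 6. The log2 fold change was 0.13 (SE 0.26, 95% interval -0.48 to 0.74, edgeR adjusted p = 0.958) and became -0.44 with sex as a covariate (edgeR adjusted p = 0.892). The deposited matrix counts pairs without regard to strand and held 75.5% to 83.6% of the pairs that the strand-matched count gives to Cmya5, whose locus overlaps the antisense genes Gm4814 and A630019I02Rik in GENCODE M21. With strand-matched counts the log2 fold change was 0.098, and without mutant replicate 2 it was -0.13.

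Xirp1 was the member with the smallest p. It codes for Xin, an actin-binding repeat protein known to increase in damaged and regenerating muscle fibres. It measured 207, 188 and 267 CPM in the controls, against 110, 119 and 183 CPM in the mutants. All mutants were below all controls, and the margin was narrow, 183 CPM in mutant replicate 3 against 188 CPM in control replicate 2. The means were 220 ± 41.4 and 137 ± 39.7 CPM (SD, n = 3 each), and the log2 fold change was -0.68 (SE 0.24, 95% interval -1.24 to -0.13, edgeR unadjusted p = 0.0226, adjusted p = 0.655). Mutant replicate 3 is the male mutant, and the 2 low mutants are the females. With sex as a covariate the log2 fold change was -0.27 (edgeR adjusted p = 0.913). In male animals alone, with 1 mutant, it was also -0.27. The design fixes this match, because both settings compare mutant replicate 3 alone with the controls. Sex and genotype are unevenly mixed in this design, and 1 male mutant cannot separate them.

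Xirp2, the larger Xin relative that binds alpha-actinin, measured 3492, 3515 and 3973 CPM in the controls, against 2968, 3595 and 3142 CPM in the mutants. Mutant replicate 2 lay above 2 of the controls. The log2 fold change was -0.18 (SE 0.17, 95% interval -0.57 to 0.21, edgeR adjusted p = 0.897), and it was -0.12 without mutant replicate 1. The ratio of Xirp1 to Xirp2 within a library was 0.0592, 0.0534 and 0.0672 in the controls and 0.0372, 0.0330 and 0.0582 in the mutants, so the male mutant fell among the controls (mean log2 difference -0.52, two-sided exact permutation p = 0.2, smallest possible 0.1).

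The 3 stretch-response genes are shown with the 250 bases before their RefSeq start sites (build GRCm38.p6, printed on the gene's strand), because they varied most over the 6 libraries, Ankrd2 and Csrp3 being low in the same 2 libraries and Ankrd1, the close relative of Ankrd2, high in a single one. RefSeq promoters were found for 7 of the 10 genes. Capitals mark matches to GGAATG (the MCAT element bound by TEAD factors), CAGCTG (an E-box), the MEF2 site or the CArG box of SRF on either strand, or to TATAAA on the gene's strand. Csrp3 has 2 annotated starts, which gene counts cannot tell apart.
Ankrd1, chr19:36119845-36120094, minus strand: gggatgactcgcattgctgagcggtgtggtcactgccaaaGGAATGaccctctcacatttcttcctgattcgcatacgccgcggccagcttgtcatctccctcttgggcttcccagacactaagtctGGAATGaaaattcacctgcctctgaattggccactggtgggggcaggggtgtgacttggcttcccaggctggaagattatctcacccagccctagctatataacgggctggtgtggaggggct
Ankrd2, chr19:42035777-42036026, plus strand: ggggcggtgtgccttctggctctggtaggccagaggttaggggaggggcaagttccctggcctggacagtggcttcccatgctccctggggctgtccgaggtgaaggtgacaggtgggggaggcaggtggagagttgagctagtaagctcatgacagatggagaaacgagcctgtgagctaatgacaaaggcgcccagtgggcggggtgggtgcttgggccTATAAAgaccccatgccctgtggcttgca
Csrp3, outer start, chr7:48848052-48848301, minus strand: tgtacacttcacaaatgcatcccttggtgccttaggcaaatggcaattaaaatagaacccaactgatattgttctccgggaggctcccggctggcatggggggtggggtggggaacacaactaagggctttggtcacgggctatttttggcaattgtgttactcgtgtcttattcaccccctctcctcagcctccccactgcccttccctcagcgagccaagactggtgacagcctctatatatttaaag
Csrp3, inner start, chr7:48843672-48843921, minus strand: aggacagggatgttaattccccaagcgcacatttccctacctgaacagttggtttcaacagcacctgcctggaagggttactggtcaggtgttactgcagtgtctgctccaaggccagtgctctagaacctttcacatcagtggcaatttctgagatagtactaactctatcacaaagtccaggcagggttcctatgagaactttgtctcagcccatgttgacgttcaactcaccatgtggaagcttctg
The Ankrd1 window held 2 MCAT matches, at -210 to -205 and -123 to -118 from the start, and the Ankrd2 window a TATAAA at -29 to -24. Over all 32851 RefSeq windows of this length, 12.6% held GGAATG, 13% CAGCTG, 7.59% TATAAA, 2.92% a MEF2 site and 1.47% a CArG box. Among the other members, Ttn and Xirp2 each held a MEF2 match and both Ldb3 windows, which overlap, the same CArG match. A match describes the letters only and says nothing of binding.

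Ankrd1 was low in 5 libraries and high in 1. It measured 5.79, 77.3 and 5.26 CPM in controls 1, 2 and 3, against 5.79, 7.41 and 8.68 CPM in the mutants. Control replicate 2 thus lay far above every other animal, control or mutant. The log2 fold change of -2.01 (SE 1.07, 95% interval -4.58 to 0.55, edgeR adjusted p = 0.794) rested on that animal, and without it the value was 0.40 (SE 0.23, edgeR adjusted p = 0.746). With all 6 libraries limma-voom gave -0.92 (adjusted p = 0.931). The deposited matrix held 45.9% to 49.2% of the Ankrd1 pairs that the strand-matched count assigned, the lowest share of the 10 genes, so the levels above are low estimates in every library. GENCODE M21 lists no gene that overlaps Ankrd1. Strand-matched levels were 11.7, 149 and 10.2 CPM in the controls and 12.1, 15.0 and 16.9 CPM in the mutants, with a log2 fold change of -1.96, and no more than 0.399% of the stranded pairs fell on the opposite strand.

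Of the 9 genes of denervated or regenerating fibres, 8 had their highest level in the same control. The exception was Myh8, the perinatal myosin heavy chain, at 8.47 CPM in control replicate 2 against 12.2 CPM in control replicate 1 and 19.7 CPM in mutant replicate 3. Chrng, the fetal subunit of the acetylcholine receptor, stood at 20.1 CPM in control replicate 2 against at most 0.749 CPM elsewhere. Chrnd, another receptor subunit, stood at 76.0 CPM there against at most 6.5 CPM, Myog, the myogenic factor of differentiating and denervated fibres, at 53.4 against at most 14.0 CPM, and Sln, the inhibitor of the calcium pump, at 678 against at most 14.6 CPM. The 9 genes summed to 919 CPM in control replicate 2, most of it from Sln, to 53.4 and 29.4 CPM in the other controls and to 44.2 to 76.1 CPM in the mutants. Of the 9, 8 had a log2 fold change below 0 (median -1.41) and 0 were called. These fold changes include control replicate 2, without which the summed levels of the groups overlap. The genes whose log2 CPM followed Ankrd1 most closely among 12594 genes over the 6 libraries were Kcnk5, a potassium channel (Pearson r = 0.996, Spearman rho = 0.71), and Fam110a (Pearson r = 0.996, Spearman rho = 1). Kcnk5 stood at 31.2 CPM in control replicate 2 and at 0.899 to 1.53 CPM in the others, and its r was 0.880 without control replicate 2 and 0.644 without the 2 libraries farthest from the Ankrd1 median. For Fam110a these r were 0.927 and 0.877.

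**Figure D3:**
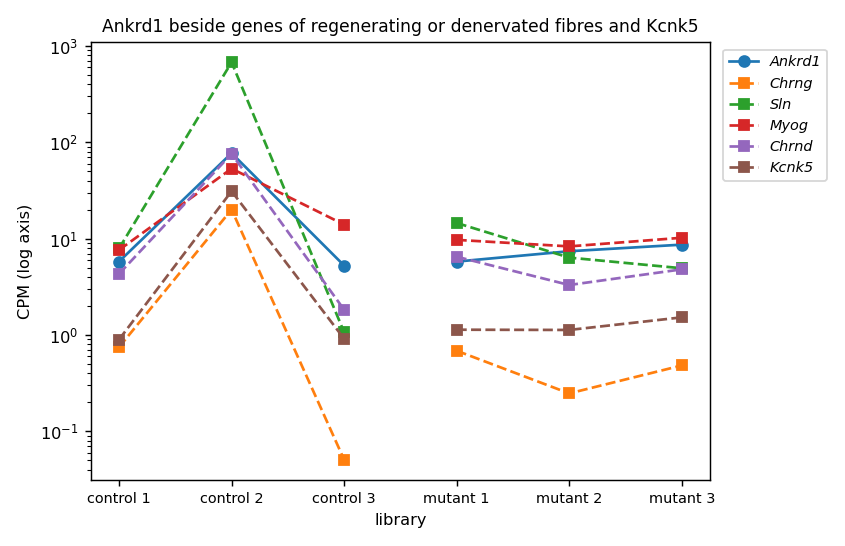
Ankrd1 (circles, solid line), 4 genes of denervated or regenerating fibres and Kcnk5 (squares, dashed lines) are plotted in CPM on a log axis over the 6 libraries; lines join the points of a gene within a group for the eye and imply no order. All 6 genes have their highest value in control replicate 2, where Ankrd1 stands at 77.3 CPM.

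Ankrd2 and Csrp3 were low together in 1 control and 1 mutant. Ankrd2 measured 185, 138 and 28.8 CPM in the controls, against 209, 56.4 and 199 CPM in the mutants. Csrp3 measured 125, 139 and 16.9 CPM in the controls, against 133, 34.4 and 118 CPM in the mutants. In both genes control replicate 3 was the lowest library and mutant replicate 2 the next, and the groups overlapped widely. The log2 fold changes were 0.40 for Ankrd2 (SE 0.74, 95% interval -1.37 to 2.18) and 0.026 for Csrp3 (SE 0.81, 95% interval -1.91 to 1.96), with edgeR adjusted p = 0.954 and 0.997. Without control replicate 3 they were -0.068 and -0.48, and without control replicate 1 the Ankrd2 value was 0.88. The Csrp3 value was also below 0 without mutant replicate 1 (-0.29) or mutant replicate 3 (-0.16).

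Genes of slow fibres had the same 2 low libraries. Myh7, the slow myosin heavy chain, measured 595, 412 and 79.1 CPM in the controls, against 829, 222 and 672 CPM in the mutants. The 8 slow-fibre genes summed to 4251, 2199 and 741 CPM in the controls and to 5027, 1371 and 3504 CPM in the mutants. All 8 had a log2 fold change above 0 (median 0.47), 0 were called, and their groups overlapped in every gene. In bulk muscle, fewer fibres of a type and less RNA per fibre cannot be told apart. The genes most like Ankrd2 over the 6 libraries were Tnni1, the slow troponin I (Pearson r = 0.993, Spearman rho = 0.94), and Myoz2, a calcineurin-binding Z-disc protein of slow fibres (Pearson r = 0.992, Spearman rho = 1). Without the 2 libraries farthest from the Ankrd2 median these r were 0.942 and 0.996. Those most like Csrp3 were Pcbd2 (Pearson r = 0.979, Spearman rho = 0.77) and Fhl1, a LIM protein of muscle (Pearson r = 0.977, Spearman rho = 0.66), and without the 2 farthest libraries their r dropped to 0.184 and 0.0953, so this likeness rested on control replicate 3 and mutant replicate 2.

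**Figure D4:**
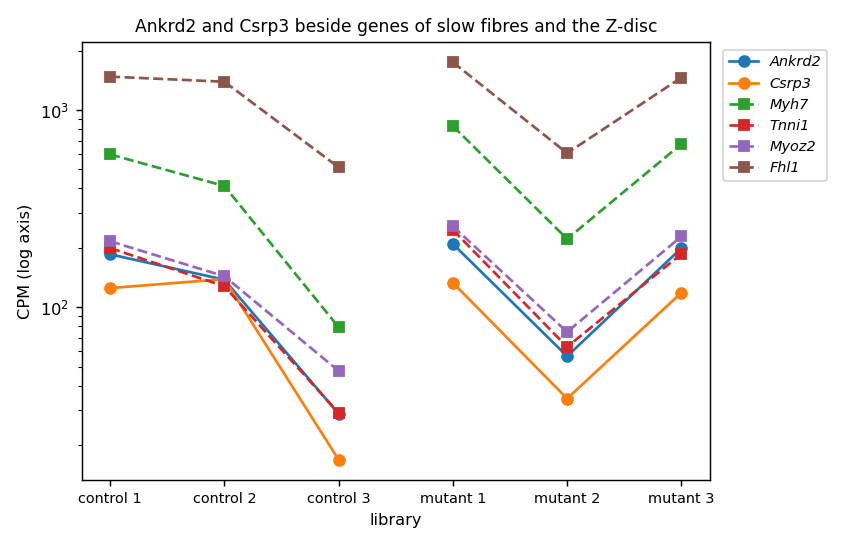
Ankrd2 and Csrp3 (circles, solid lines) are plotted in CPM on a log axis over the 6 libraries beside Myh7 and Tnni1 of slow fibres and Myoz2 and Fhl1 of the Z-disc (squares, dashed lines); lines join the points of a gene within a group for the eye and imply no order. All 6 genes are lowest in control replicate 3 and next lowest in mutant replicate 2.

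Set against slow-fibre genes of the same library, the 2 genes gave a result that changed with the genes used as the base. These ratios were added after the values were seen. Ankrd2 was 31.2%, 33.5% and 36.4% of Myh7 in the controls and 25.2%, 25.4% and 29.7% in the mutants. Csrp3 was 21%, 33.7% and 21.3% of Myh7 in the controls and 16.0%, 15.5% and 17.6% in the mutants. In both ratios every mutant lay below every control (mean log2 differences -0.33 and -0.59, two-sided exact permutation p = 0.1 each, the smallest that 3 against 3 allows). Myoz2 did the same, at 36.3%, 34.9% and 60.1% of Myh7 in the controls and 31.0%, 33.8% and 34.0% in the mutants. These ratios share Myh7 as their base, so they are not independent of one another. Among the other slow-fibre genes, Tnni1 and Tnnt1 set over Myh7 also had every mutant below every control. Myl2, Myl3, Tnnc1, Tpm3 and Atp2a2 set over Myh7 overlapped. The separation is thus not particular to Ankrd2, Csrp3 and Myoz2, and its share over all genes was not computed. Whether the separation lies in Myh7 or in the other genes was not tested. Against the sum of all 8 slow-fibre genes the groups overlapped, with Ankrd2 at 4.36%, 6.27% and 3.88% in the controls and 4.16%, 4.11% and 5.69% in the mutants (mean log2 difference -0.041, two-sided exact permutation p = 0.8). For Csrp3 against that sum the mean log2 difference was -0.30 (two-sided exact permutation p = 0.7). For Myoz2 it was -0.074 (two-sided exact permutation p = 0.9).

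The other members had close followers of mixed kinds over the 6 libraries, which in a search of 12594 genes is a description only. Neb was followed by Pomt2, an enzyme of dystroglycan glycosylation (Pearson r = 0.994, Spearman rho = 1), and Ss18l1 (r = 0.993), and Ldb3 by Pgam2, the muscle phosphoglycerate mutase (r = 0.989, rho = 1), and Ostc (r = 0.991, rho = 1). Xirp1 was followed by Plpp3, a lipid phosphatase (r = 0.985, rho = 0.94), and by Lurap1 (r = 0.990, rho = 1), which measured 7.54, 7.41 and 8.31 CPM in the controls, against 5.50, 5.93 and 7.30 CPM in the mutants. Ttn was followed by Wdr36 and A930016O22Rik (r = 0.990 and 0.984), Cmya5 by Ddx20 and the splicing factor gene Rbfox1 (r = 0.990 and 0.989), Myot by Gm4076 and Atp5f1 (r = 0.989 and 0.987), and Xirp2 by Ttc17 and F830016B08Rik (r = 0.992 and 0.982). Without the 2 libraries farthest from the member's median the r of these pairs stayed between 0.878 and 0.995.

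Other genes of the Z-disc and its partners were read from lists set up with the members. Of the 23 other Z-disc genes 0 were called by edgeR, with 11 above 0 and 12 below 0, and with a median log2 fold change of -0.006. At an unadjusted p below 0.05, 1 was lower (3.69% of all genes lower). That gene was Pdlim5, a PDZ and LIM protein that binds alpha-actinin, at 1048, 511 and 613 CPM in the controls and 458, 395 and 477 CPM in the mutants (log2 -0.71, edgeR adjusted p = 0.677). Pdlim3, its relative, measured 431, 1127 and 1240 CPM in the controls, against 471, 509 and 579 CPM in the mutants, so control replicate 1 was the lowest of all. The actin crosslinker Flnc measured 727, 942 and 913 CPM in the controls, against 655, 524 and 746 CPM in the mutants. Mypn, which codes for the Z-disc protein myopalladin, measured 526, 566 and 519 CPM in the controls, against 421, 506 and 452 CPM in the mutants (edgeR adjusted p = 0.832). Its groups did not overlap, nor did those of Pdlim5 and Myoz3. These were 3 of the 23 genes, all with mutants lower, where 6.09% of all tested genes did so. None of the 23 had every mutant higher (5.97% of all genes). For Mypn the separation rested on the TMM scaling, as it did for Ttn. In CPM without that scaling its mutant replicate 2 lay above its control replicate 3, whereas Pdlim5 and Myoz3 stayed apart. Without the scaling 4.66% of all tested genes had every mutant lower.

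The partners of nebulin and titin gave no call by edgeR either. Of 9 nebulin and thin filament partners 5 had a log2 fold change above 0 and 4 below 0 (median 0.012), and Klhl40, which stabilises nebulin, measured 158, 136 and 302 CPM in the controls, against 144, 135 and 147 CPM in the mutants. Lmod2, a leiomodin that lengthens thin filaments, was lowest in control replicate 3 (43.8 CPM) and mutant replicate 2 (102 CPM), the 2 libraries low in slow-fibre genes, as were Tpm2 (1859 and 3077 CPM) and Mybpc1 (808 and 1209 CPM). Of 12 titin partners and M-band genes 5 had a log2 fold change above 0 and 7 below 0 (median -0.10). Myom2, the fast-fibre myomesin, measured 2301, 2565 and 2654 CPM in the controls, against 1721, 1905 and 2495 CPM in the mutants, and Capn3, the titin-bound calpain, at 28.9, 14.7 and 25.6 CPM and 15.2, 16.2 and 22.6 CPM. Of the 8 fast-fibre genes 5 had a log2 fold change above 0 and 3 below 0 (median 0.013), with Myh4 between 44458 and 75458 CPM in every library.

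Genes of the stretch response and of the YAP and SRF pathways gave values on both sides of 0. YAP is a coactivator that enters the nucleus under load and acts through TEAD factors, and Ankrd1 is among its known targets. Of 14 tested genes 0 were called by edgeR, 5 had a log2 fold change above 0 and 9 below 0 (median -0.09), and at an unadjusted p below 0.05, 2 were higher and 2 lower, where 3.25% of all tested genes were higher and 3.69% lower. Amotl2, an angiomotin that binds YAP, measured 15.8, 17.1 and 14.6 CPM in the controls, against 28.8, 32.6 and 27.0 CPM in the mutants (log2 0.90, SE 0.13, edgeR adjusted p = 0.09). Tead4, a TEAD factor of differentiating muscle, measured 9.04, 22.7 and 12.6 CPM in the controls, against 4.52, 3.61 and 4.5 CPM in the mutants (log2 -1.81, SE 0.34, edgeR adjusted p = 0.252). The groups of both genes did not overlap, where 5.97% of all tested genes had every mutant higher and 6.09% every mutant lower. DESeq2 called both (adjusted p = 0.000102 and 0.000131), as did edgeR without the filter on low counts (adjusted p = 0.017 and 0.0415). DESeq2 with sex as a covariate called neither (adjusted p = 0.231 and 0.159). The log2 fold changes there were 0.75 and -1.74, against 0.89 and -1.82 in DESeq2 without sex. Tead4 was highest in control replicate 2, the library with high Ankrd1, and without it the log2 fold change was -1.36 (edgeR adjusted p = 0.115). Smpx, a small costamere protein induced by stretch, measured 314, 292 and 285 CPM in the controls, against 249, 190 and 238 CPM in the mutants (log2 -0.40, edgeR adjusted p = 0.677). The groups of Smpx did not overlap either, so 2 of the 14 genes had every mutant lower and 1 had every mutant higher. Ccn2, a secreted YAP target, measured 15.7, 12.4 and 23.1 CPM in the controls, against 27.8, 20.1 and 51.9 CPM in the mutants (log2 0.96, edgeR adjusted p = 0.701). Nppb had 0 counts in every library, which allows up to 0.0686 to 0.0856 CPM before scaling, and Nppa at most 3 counts.

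**Figure D5:**
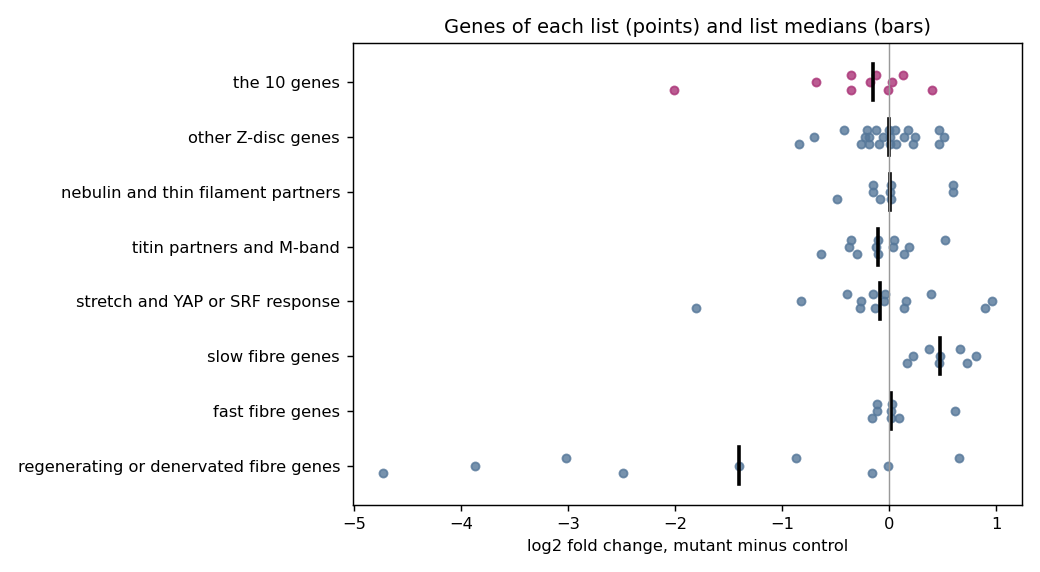
Each point is the fitted log2 fold change (mutant minus control, horizontal axis) of 1 gene, with 1 row per list, and the black bar is the list's median. The lists of Z-disc, nebulin and titin partners lie around 0. The 8 slow-fibre genes lie above 0 (median 0.47), and each was lowest in control replicate 3. Most genes of denervated or regenerating fibres lie below 0 (median -1.41), and all of that list except Myh8 were highest in control replicate 2. In every row 0 genes were called by edgeR.

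Markers of other cell types varied between libraries. The 4 fibroblast markers summed to 630, 973 and 3280 CPM in the controls and 838, 603 and 4129 CPM in the mutants. This range came mostly from Col1a1 (69.1 to 2131 CPM) and Col3a1 (140 to 1502 CPM), both highest in control replicate 3 and mutant replicate 3 of their groups. Dcn (312 to 458 CPM) and Pdgfra (24.8 to 38.0 CPM) varied far less, so the sum does not measure fibroblast content. Macrophage markers summed to 62.2 to 94.6 CPM in the controls and 79.8 to 138 CPM in the mutants. Endothelial markers summed to 156 to 173 CPM and 185 to 249 CPM, every mutant above every control. Among the endothelial markers Vwf alone had its groups apart, where 5.97% of all tested genes had every mutant higher. Adipocyte markers summed to 15.8 to 50.9 CPM and 24.6 to 78.3 CPM, and smooth muscle markers to 98.3 to 177 CPM and 110 to 189 CPM. Of the heart muscle markers, Tnni3 and Nppa were too low to be tested. Myh6, the alpha heavy chain of heart myosin, measured 60.5, 34.9 and 14.9 CPM in the controls, against 2.83, 0.799 and 3.08 CPM in the mutants (log2 -4.03, SE 0.69, edgeR adjusted p = 0.224; DESeq2 adjusted p = 2.62e-10). Myh6 closely resembles its neighbour Myh7, and pairs that map to both were not counted, so its level is uncertain. Tnnt2 lay at 1.68 to 9.06 CPM in controls and 4.33 to 7.59 CPM in mutants. The part of these cell types in the values of the 10 genes was not tested.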

How the data were processed

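The data are poly(A) RNA-seq counts of gastrocnemius from 6 mice. The authors' files hold raw counts of read pairs by gene: 1 matrix, and 1 table per library with unstranded and per-strand counts. The deposited matrix equalled the unstranded column in all 57010 genes, although the libraries were directional. The submitters' processing notes name STAR 2.7.11b, DESeq2 1.50.2 and GRCm39, with an annotation release not given in the sources used here. Pairs that named no gene (18.5% to 22.3%) were left out. The authors' deposited DESeq2 table (log2 fold changes, standard errors and Wald statistics as scores, p-values and mean normalized signal) was used for 1 sentence, its model being unknown here.

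The test was edgeR 4.0.16 (R 4.3.3): TMM scaling, filterByExpr (minimum count 10), a robust quasi-likelihood F-test without covariates and Benjamini-Hochberg adjustment over 15589 genes, with calls at an adjusted p below 0.05. SE is the size of the log2 fold change over the square root of F. CPM use TMM-scaled library sizes, except in strand-matched levels. Symbols matched 52029 IDs. Lengths and neighbouring genes came from GENCODE M21 (GRCm38) and promoters from RefSeq. DESeq2 1.42.0, limma-voom 3.58.1 and other settings were alternatives. The closest 2 libraries had a chi-square over degrees of freedom of 49.4, so they differed by more than counting noise. That the 6 libraries come from separate animals rests on the labels alone. Intervals cover spread between these animals only.

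The members and lists were chosen with earlier results of these data known. Named genes were Dysf, the 10 members, 4 genes per list with the smallest p, and the 2 genes most like each member among those with at least 1 CPM on average and counts in every library. The fit was tested on simulated data, where it called 21.1% of 2-fold, 78.8% of 4-fold and 89.1% of 8-fold changes. These rates are averages over randomly drawn genes and are not rates for the 10 members. A lack of calls alone therefore does not exclude 2-fold changes, and the members' own 95% intervals differ. On the log2 scale they reached -4.58 for Ankrd1, 2.18 for Ankrd2 and 1.96 for Csrp3, which leaves room for changes of 4-fold or near it. Those of Ttn, Myot, Ldb3, Cmya5 and Xirp2 stayed between -0.82 and 0.74.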

Additional observations from a re-analysis of the deposited data

How the results depend on the processing

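No member was called in any of the 17 alternatives, and between 6 and 8 of the 10 were lower in each. The members' median stayed between -0.25 and -0.12. Ttn, Neb, Xirp1 and Xirp2 kept their direction throughout. Of 170 member values 20 turned. With upper quartile factors Ldb3 was 0.017. With sex as a covariate Myot, Ldb3 and Cmya5 were 0.024, 0.26 and -0.44, in male animals only 0.026, 0.26 and -0.44, and in DESeq2 with sex (an alternative chosen after seeing the data) 0.0046, 0.24 and -0.46. All of these sex settings compare mutant replicate 3 alone with the controls, so their turns are not separate results. Leaving out 1 library in turn gave ranges of -0.21 to 0.0039 for Myot, -0.17 to 0.16 for Ldb3, -0.13 to 0.35 for Cmya5, -2.52 to 0.40 for Ankrd1 (positive without control replicate 2), -0.068 to 0.88 for Ankrd2 and -0.48 to 0.43 for Csrp3. The cause was not tested. The number of genes called, 31, was 184 with DESeq2, 79 without a filter (30528 genes tested), 0 with sex as a covariate in edgeR (882 at an unadjusted p below 0.05; 87 called by DESeq2 with sex) and 0 in male animals only (594 at an unadjusted p below 0.05), and 6 to 49 without single libraries, lowest without mutant replicates 1 and 2 (7 and 6) and highest without control replicate 2 (49). Dysf lost its call in edgeR with sex as a covariate, in males only (log2 -2.38 in both) and without any 1 mutant (-2.80 to -2.55), against -2.64, and kept it in DESeq2 with sex (-2.40, adjusted p = 7.07e-06).

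The replicate number as a block left 11 genes called and no member, with Ankrd1 at -0.79 (limma-voom without the block gave -0.92). Same-numbered libraries correlated at 0.270, -0.0595 and 0.244 in their deviations from the group means. Controls 1 and 3 each correlated best with the mutant of the same number, whereas control replicate 2 correlated best with mutant replicate 3 (0.0720). With so few libraries these values cannot decide whether the numbers pair the animals.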
